A study of Arabidopsis thaliana with 12 samples.

Results

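CML41 and AT2G23070 are a pair of signalling genes whose transcripts were read in wild-type Arabidopsis thaliana under a kinase inhibitor. CML41 is a calmodulin-like protein and AT2G23070 encodes CKA4, which is catalytic in the protein kinase CK2. They were read through probes that the platform annotation pairs with exactly 1 gene. Each had 1 such probe, so they are 2 of the 691 genes with a probe of their own, on an array of 3439 probes, and neither gene was named on any probe with several genes. Probe 1240 carries CML41 (locus AT3G50770) and probe 560 carries AT2G23070.

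The study compared total RNA of plants treated with staurosporine, called pStau, with that of plants kept in water, called H2O. The 6 pStau arrays came from Columbia 0 plants that had 4 h of water followed by 4 h of staurosporine, given in the labels as 25 mM at pH 5.5, a dose that was not checked against another source. The 6 H2O arrays came from Columbia 0 plants that had 8 h of water. Both groups are wild type and share the ecotype. The labels name no tissue and no source of the replicate arrays. Where arrays share plants or RNA, the spread behind the p-values is technical.

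Calmodulin-like proteins bind calcium through EF-hand motifs and change shape as calcium rises, which lets them pass a calcium signal on to other proteins. In Arabidopsis, CML41 is known as a protein of plasmodesmata, the channels between plant cells, where it takes part in closing them by callose during immune signalling. CK2 is a protein kinase made of catalytic alpha and regulatory beta subunits, and CKA4, encoded by AT2G23070, is the catalytic subunit that is sent to plastids, where it phosphorylates proteins of plastid gene expression. Staurosporine blocks the ATP site of many protein kinases. The arrays measured transcripts, so kinase activity and calcium were not measured.

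The deposited values are intensities between 0 and 100 that were taken as linear. The pStau arrays had medians of 0.169 to 0.392 and 12.3% to 17.3% of values at 0, against medians of 0.405 to 0.485 and 11.5% to 13.1% at 0 on H2O arrays. This array-wide difference touches every result here. The values are therefore given both as deposited and after quantile normalization, which gives all arrays the same distribution of positive values. Of the green tissue markers, 5 of 12 were measured by a probe with 1 gene, and 0 of these 5 were listed at 0 on any array. Of these, 1 rose (PSBW), 3 fell (PSAN, LHB1B2 and PSBY) and 1 did not pass (PRK) at a limma adjusted p under 0.05 after normalization. Of all 3256 tested probes, 16.5% were called higher in pStau and 18.8% lower. The median log2 change of the 5 markers was -0.51. Their summed normalized level was 62.5 to 68.6 on pStau arrays and 50.6 to 56.3 on H2O arrays, but most of it is PSBW, at 59.4 to 65.7 in pStau and 45.7 to 50.5 in H2O, so the sum runs against most of its members. None of the 6 root markers had such a probe.

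CML41, the calcium sensor, had deposited intensities of 1.16, 1.03, 0.847, 0.877, 1.23 and 1.26 on pStau arrays 1 to 6. On H2O arrays 1 to 6 it had 1.29, 1.17, 0.759, 0.716, 0.851 and 0.903. The groups overlapped. H2O arrays 1 and 2 lay at the level of the higher pStau arrays, and pStau arrays 3 and 4 lay among the lower H2O arrays. After quantile normalization the CML41 intensities were 1.08, 0.953, 1.09, 1.08, 1.24 and 1.29 on pStau arrays 1 to 6, against 1.15, 1.04, 0.718, 0.665, 0.721 and 0.781 on H2O arrays 1 to 6. All 6 pStau arrays were above H2O arrays 3 to 6, and the overlap now came from H2O arrays 1 and 2 alone. In such bulk RNA, fewer cells that use a gene and less of its RNA per cell cannot be told apart.

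On this normalized scale CML41 rose 1.35-fold in pStau (log2 change 0.43 ± 0.14, SE, 95% interval 0.12 to 0.75, n = 6 per group, limma adjusted p = 0.0373). The mean log2 level of CML41 was 0.16 ± 0.16 in pStau and -0.27 ± 0.32 in H2O (SD, n = 6 each). Of the 3256 probes tested, 35.3% passed that threshold, 16.5% as higher in pStau and 18.8% as lower, so both genes passing is not a count that sets them apart. The CML41 change was at percentile 78.0 of the changes of all tested probes, whose median was -0.0041. The call ended with the array number as a block (limma adjusted p = 0.0770, with 39.3% of all tested probes called), and also with the table as deposited, where the log2 change was 0.19 ± 0.19 (SE, limma adjusted p = 0.416, n = 6 per group). The median change of all probes as deposited was -0.80, so CML41 lay 0.99 above it, against 0.44 above the median after normalization.

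AT2G23070, the plastid CK2 catalytic subunit, had deposited intensities of 0.449, 0.443, 0.277, 0.362, 0.338 and 0.347 on pStau arrays 1 to 6. On H2O arrays 1 to 6 it had 0.524, 0.531, 0.461, 0.452, 0.466 and 0.456. All 6 pStau arrays were thus below all 6 H2O arrays as deposited, a pattern shared by 20.2% of the tested probes, against 3.35% with all pStau arrays higher. After quantile normalization the order turned. The AT2G23070 intensities became 0.407, 0.410, 0.485, 0.583, 0.485 and 0.496 on pStau arrays 1 to 6, against 0.409, 0.411, 0.412, 0.401, 0.355 and 0.340 on H2O arrays 1 to 6. On that scale pStau arrays 3 to 6 were above every H2O array, and pStau arrays 1 and 2 lay among the H2O arrays.

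AT2G23070 rose 1.23-fold in pStau on the normalized scale (log2 change 0.29 ± 0.098, SE, 95% interval 0.077 to 0.51, n = 6 per group, limma adjusted p = 0.0377), at percentile 70.9 of all changes. Its mean log2 level was -1.08 ± 0.19 in pStau and -1.37 ± 0.12 in H2O (SD, n = 6 each). With the table as deposited the log2 level of the gene fell by 0.40 (adjusted p = 0.0434 in limma), a direction in which 46.7% of the tested probes were called, against 5.62% called higher, while the median change of all probes was -0.80, so it lay 0.40 above that median. Scaling arrays to the same total gave a change of -0.41 (limma adjusted p = 0.0157, with 50% of tested probes called lower), also 0.40 above the median change. The direction called for AT2G23070 thus depended on the scaling. The rise was no longer called with the array number as a block (limma adjusted p = 0.0686).

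**Figure D1:**
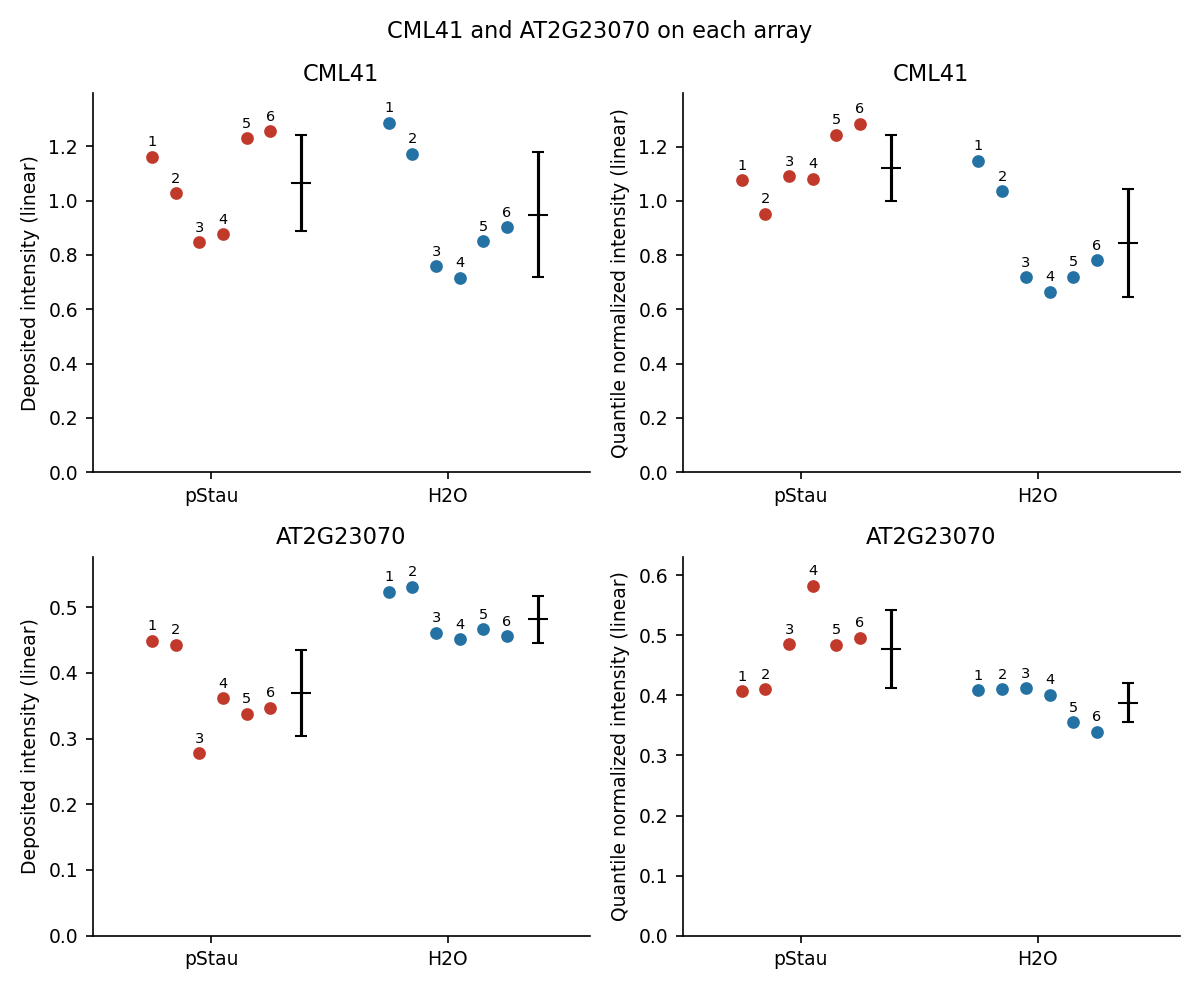
Intensity of CML41 (top) and AT2G23070 (bottom) on each of 6 pStau and 6 H2O arrays, as deposited (left) and quantile normalized (right), on linear axes from 0. Points carry the array number and bars show mean ± SD. As deposited, AT2G23070 was lower on all 6 pStau arrays than on any H2O array, and after normalization 4 of the pStau arrays, 3 to 6, were above every H2O array. CML41 overlapped between groups on both scales, after normalization through H2O arrays 1 and 2.

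The rank of a probe within its own array does not change when the whole array is scaled, so it was compared next. Quantile normalization also sets each level from the rank among the positive values of the array. The rank comparison is therefore not independent of the normalized one. CML41 stood at percentiles 85.4, 82.6, 86.3, 86.3, 88.5 and 89.0 of all probes on pStau arrays 1 to 6, against 86.7, 84.3, 75.1, 72.6, 75.0 and 77.4 on H2O arrays 1 to 6. The CML41 percentile was 86.4 ± 2.3 in pStau and 78.5 ± 5.7 in H2O (SD, n = 6 each), 7.82 points higher (two-sided exact permutation p = 0.0216, and 0.0585 after Benjamini-Hochberg adjustment over all tested probes). The rank was higher on the pStau array in 4 of 6 numbers, and the exact sign-flip test over numbers, whose smallest p is 0.0312, gave p = 0.125.

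AT2G23070 stood at percentiles 54.5, 54.5, 62.7, 69.8, 61.5 and 62.6 on pStau arrays 1 to 6, against 54.3, 54.1, 55.1, 54.1, 49.1 and 47.6 on H2O arrays 1 to 6. The AT2G23070 percentile was 60.9 ± 5.8 in pStau and 52.4 ± 3.2 in H2O (SD, n = 6 each), 8.53 points higher (two-sided exact permutation p = 0.0130, adjusted p = 0.0404 over all tested probes). It was higher on the pStau array in 6 of 6 numbers (exact sign-flip p = 0.0312, the smallest possible), although by only 0.145 and 0.320 points in numbers 1 and 2. That sign-flip test takes the 6 numbers as independent. On the normalized scale the log2 differences of AT2G23070 in numbers 1 and 2 were -0.0053 and -0.0020, so the sign there depended on the measure. Consecutive arrays of a group had a correlation of 0.708 in the limma fit that took them as a random block. With consecutive arrays averaged the exact permutation p was 0.200, where 3 values against 3 cannot go below 0.1. Among all tested probes 47.7% had an unadjusted exact permutation p under 0.05 for their rank, and 26% of all tested probes had one and were higher in pStau. The share of probes under 0.05 after adjustment is not given here. A rise in rank says that the probe moved past others on the array, and a fall of those others would give it too.

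**Figure D2:**
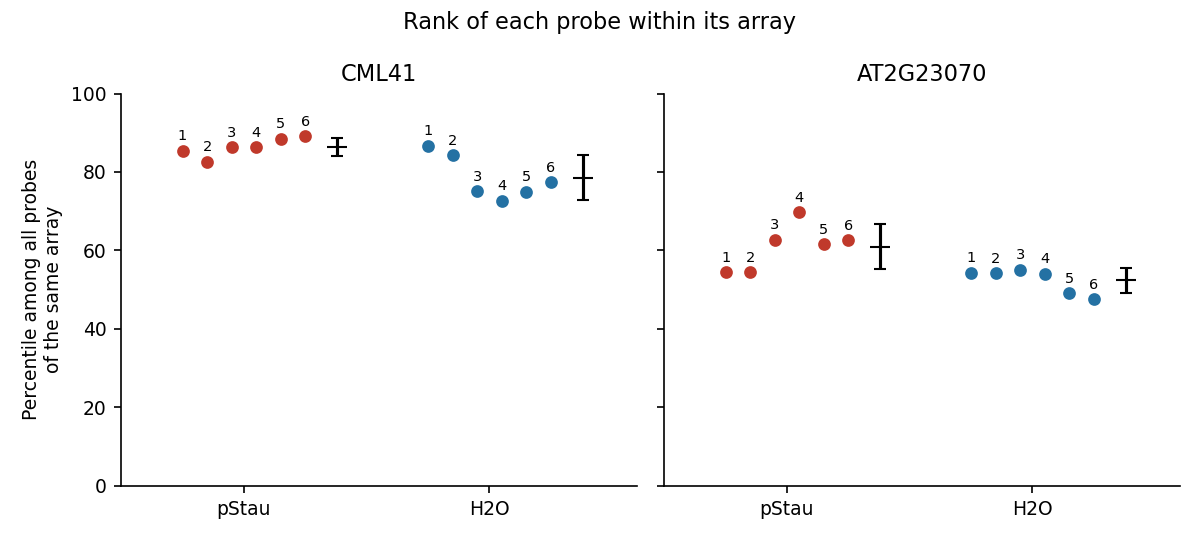
Percentile of the CML41 probe (left) and the AT2G23070 probe (right) among all 3439 probes of the same array, from the deposited values, for 6 pStau and 6 H2O arrays with mean ± SD. CML41 lay between 82.6 and 89.0 on pStau arrays, against 72.6 to 86.7 on H2O arrays, and AT2G23070 between 54.5 and 69.8 on pStau arrays, against 47.6 to 55.1 on H2O arrays.

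The group difference of both genes varied with the array number. Within a group, arrays 1 and 2, 3 and 4, and 5 and 6 were alike in their levels of CML41. Within such a pair, CML41 differed by 0.014 to 0.18 on the log2 scale in pStau and by 0.11 to 0.15 in H2O. Its pair means ran over a wider range, 0.018, 0.12 and 0.34 in pStau, against 0.13, -0.53 and -0.41 in H2O. The CML41 change was therefore -0.11 for arrays 1 and 2, 0.65 for arrays 3 and 4, and 0.75 for arrays 5 and 6.

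AT2G23070 had normalized pair means of -1.29, -0.91 and -1.03 in pStau, against -1.29, -1.30 and -1.52 in H2O. Within a pair, AT2G23070 differed by 0.011, 0.26 and 0.033 in pStau and by 0.0077, 0.039 and 0.065 in H2O. Its pStau arrays 3 and 4 were thus less alike than its other pairs. Its change was -0.0036 for arrays 1 and 2, 0.39 for arrays 3 and 4, and 0.50 for arrays 5 and 6. In both genes the normalized difference was thus near 0 or below in arrays 1 and 2 and above 0 in the other 4 numbers. As deposited, the differences of CML41 were -0.15, -0.19, 0.16, 0.29, 0.53 and 0.48 in numbers 1 to 6, and those of AT2G23070 were -0.22, -0.26, -0.73, -0.32, -0.47 and -0.39. The medians of pStau arrays 1 and 2 were 0.392 on both, against 0.169 to 0.228 on pStau arrays 3 to 6. The array totals were 3525 and 3541 on pStau arrays 1 and 2, and 3139 to 3246 on pStau arrays 3 to 6. On H2O arrays they were 3545 and 3562 on arrays 1 and 2, and 3054 to 3201 on arrays 3 to 6. The part of the lower pStau medians in the normalized differences was not tested.

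Leaving out arrays 1 and 2 of both groups gave a CML41 change of 0.74 (limma adjusted p = 0.000975) and an AT2G23070 change of 0.45 (limma adjusted p = 0.0125). Leaving out arrays 3 and 4 of both groups gave 0.31 for CML41 (limma adjusted p = 0.237) and 0.24 for AT2G23070 (0.156). Without arrays 5 and 6 of both groups the change was 0.27 for CML41 (limma adjusted p = 0.364) and 0.19 for AT2G23070 (0.327). A single array decided the calls as well. That of CML41 ended without any 1 of arrays 3 to 6 of either group (limma adjusted p up to 0.0780), and that of AT2G23070 without any 1 of pStau arrays 3 to 6 or H2O arrays 4 to 6 (limma adjusted p up to 0.0793). Treating consecutive arrays as a random block, which leaves 16.1% of all tested probes called, ended both calls (limma adjusted p = 0.1002 for CML41 and 0.145 for AT2G23070).

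**Figure D3:**
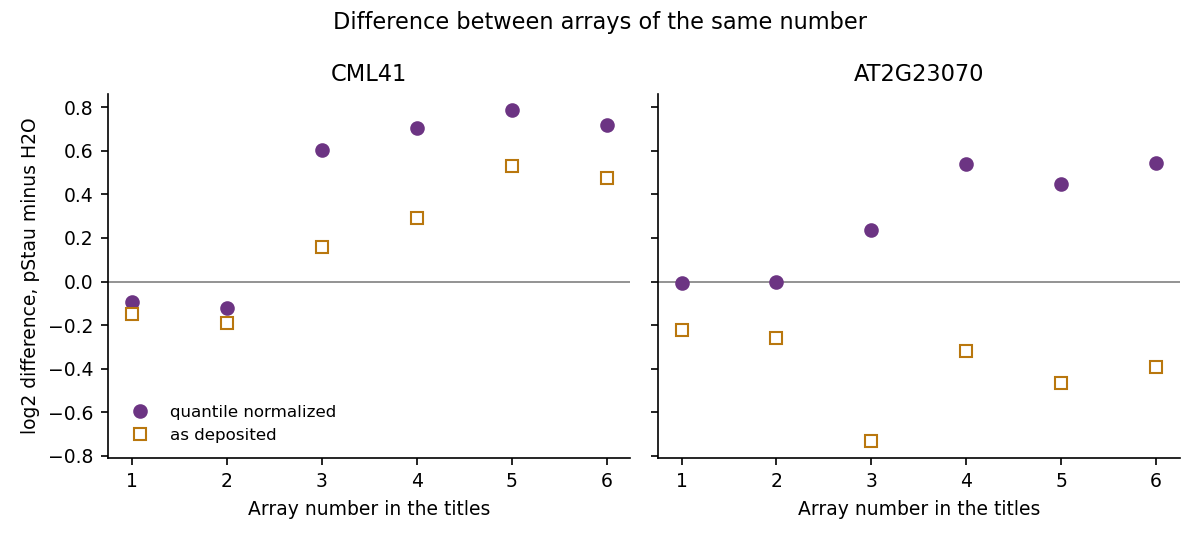
Log2 difference between the pStau and the H2O array of the same number for CML41 (left) and AT2G23070 (right), quantile normalized (filled circles) and as deposited (open squares). The normalized differences were -0.12 to -0.0020 in numbers 1 and 2 and 0.23 to 0.79 in numbers 3 to 6. The deposited differences of AT2G23070 were below 0 in all 6 numbers.

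The changes of the 2 genes were then compared with each other through the difference of their log2 levels on the same array, in which a factor common to the array cancels. This AT2G23070 minus CML41 difference was -1.24 ± 0.19 in pStau and -1.10 ± 0.30 in H2O (SD, n = 6 each) after quantile normalization. The group difference of -0.14 was smaller than the spread between arrays (two-sided exact permutation p = 0.344, 95% interval -0.476 to 0.196 by inversion of the test). As deposited, the same difference was -1.53 ± 0.29 in pStau and -0.95 ± 0.24 in H2O (SD, n = 6 each), a group difference of -0.58 (exact permutation p = 0.00649). Scaling to the same total or centring on the median gives that same value. The group difference was below 0 in every setting run, while its size and whether its p was under 0.05 depended on the normalization. Cyclic loess, which like quantile normalization adjusts bright and dim probes by different amounts, gave -0.059 (exact permutation p = 0.693).

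**Figure D4:**
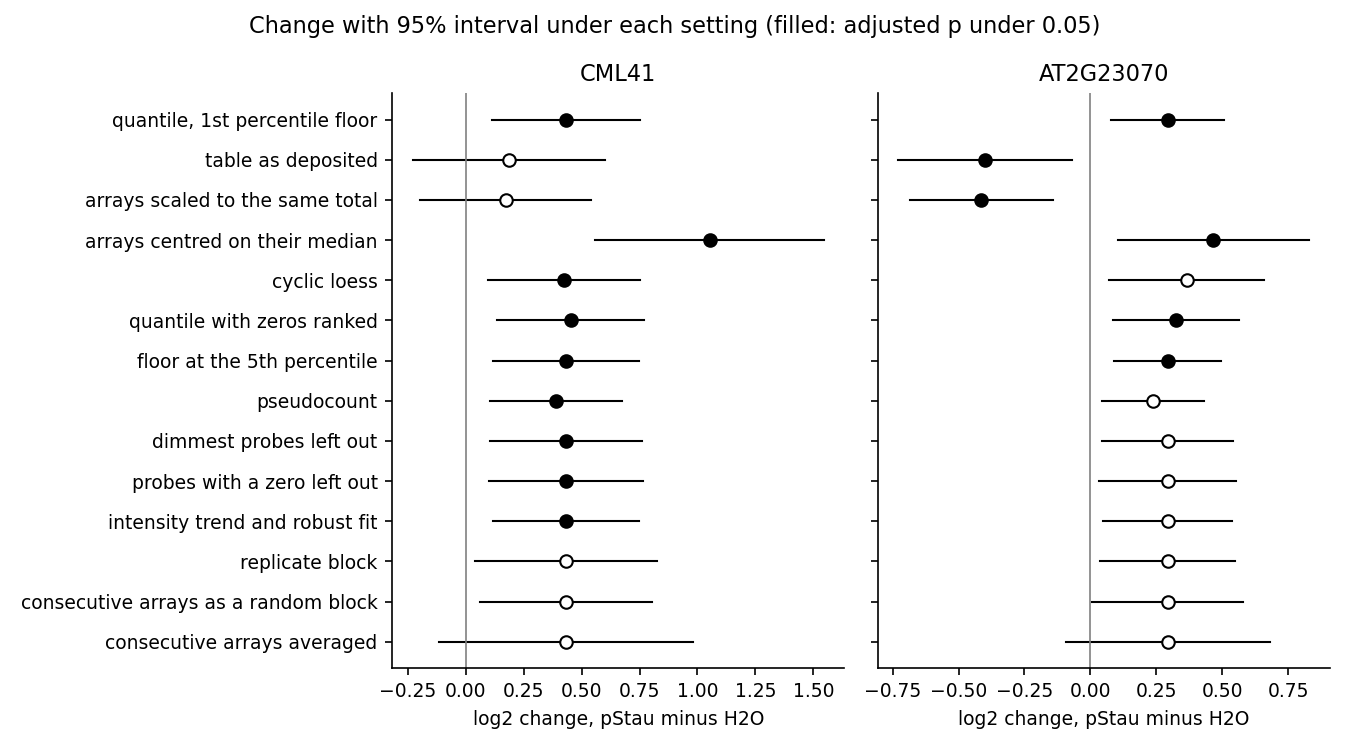
Log2 change, pStau minus H2O, with its 95% interval for CML41 (left) and AT2G23070 (right) under the quantile normalization used here and each other setting, with filled points where the limma adjusted p was under 0.05. The estimate for CML41 was above 0 in every setting drawn, from 0.17 to 1.05. That for AT2G23070 was below 0 as deposited, at -0.40, and after scaling to the same total, at -0.41, and above 0 in the others drawn. The interval included 0 for both genes with consecutive arrays averaged, and for CML41 also as deposited and after scaling to the same total.

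Few other listed genes of these pathways had a probe of their own. Of 8 CK2 subunit genes, AT2G23070 was the only one measured by a probe with 1 gene, so no other catalytic subunit and no regulatory beta subunit could be set beside it. Calcium sensing genes could be sought by symbol and synonym only, without product text, so others with a probe may have been missed. Those found numbered 2, CML41 and CML30, a further calmodulin-like protein. Of these, 1 rose, 0 fell and 1 did not pass, where 16.5% of all tested probes were called higher, and the 1 call, of CML41, is the one that ended with the array number as a block. None of the listed plastid kinases and phosphatases (5 genes) or plastid calcium genes (6) had such a probe. Nor did the sigma factors, RNA-binding proteins and import receptor of families that hold CK2 substrates (12), or the plasmodesma and callose genes (9). A search by name for protein kinases and protein phosphatases returned 0 genes and missed AT2G23070 itself. Its search words needed product text, which the gene table lacks, so it cannot show whether others had a probe.

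CML30 had normalized intensities of 1.63, 1.28, 1.62, 1.69, 1.77 and 1.89 on pStau arrays 1 to 6, against 1.70, 1.48, 1.15, 1.19, 2.42 and 2.42 on H2O arrays 1 to 6. Its pStau arrays lay inside the range of its H2O arrays (log2 change -0.015 ± 0.20, SE, limma adjusted p = 0.977, n = 6 per group). On H2O arrays 3 and 4 both calmodulin-like genes were low, while on H2O arrays 5 and 6 CML41 was low and CML30 was at its highest. The within-array difference CML41 minus CML30 was -0.55 ± 0.073 in pStau and -0.998 ± 0.55 in H2O (SD, n = 6 each). The group difference of 0.45 had a two-sided exact permutation p of 0.0433 (95% interval 0.0060 to 1.08), in a comparison added after the data were seen. It did not hold as deposited (0.12, exact permutation p = 0.487) or with the number as a block (exact sign-flip p = 0.0625), and was 0.089 without arrays 5 and 6 of both groups (exact permutation p = 0.371).

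Genes with a like pattern were sought among the 529 other probes with 1 gene that were above 0 on all 12 arrays. Likeness was the root mean square difference of the log2 levels over the 12 arrays, after each probe was centred on its own mean, so that 0 is an identical pattern. The nearest to CML41 was ATSPS4F, a sucrose-phosphate synthase, at 0.158, followed by AT5G49120 (0.164), AT1G17160 (0.167) and AT1G67930 (0.178), where the median of all candidates was 0.522. The nearest to AT2G23070 was AT1G08050 at 0.0870, followed by ATSPS4F (0.109), AT4G16410 (0.151) and AT1G15140 (0.155), with a median of 0.459. ATSPS4F, of the pathway that makes sucrose, was thus among the 4 nearest of both genes, and its log2 change, which the choice by pattern used, was 0.41. CML41 and AT2G23070 were 0.241 apart, and each had nearer candidates than the other, at rank 24 seen from CML41 and rank 50 seen from AT2G23070. Arrays share the group difference and the likeness of consecutive arrays, which all these distances hold.

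**Figure D5:**
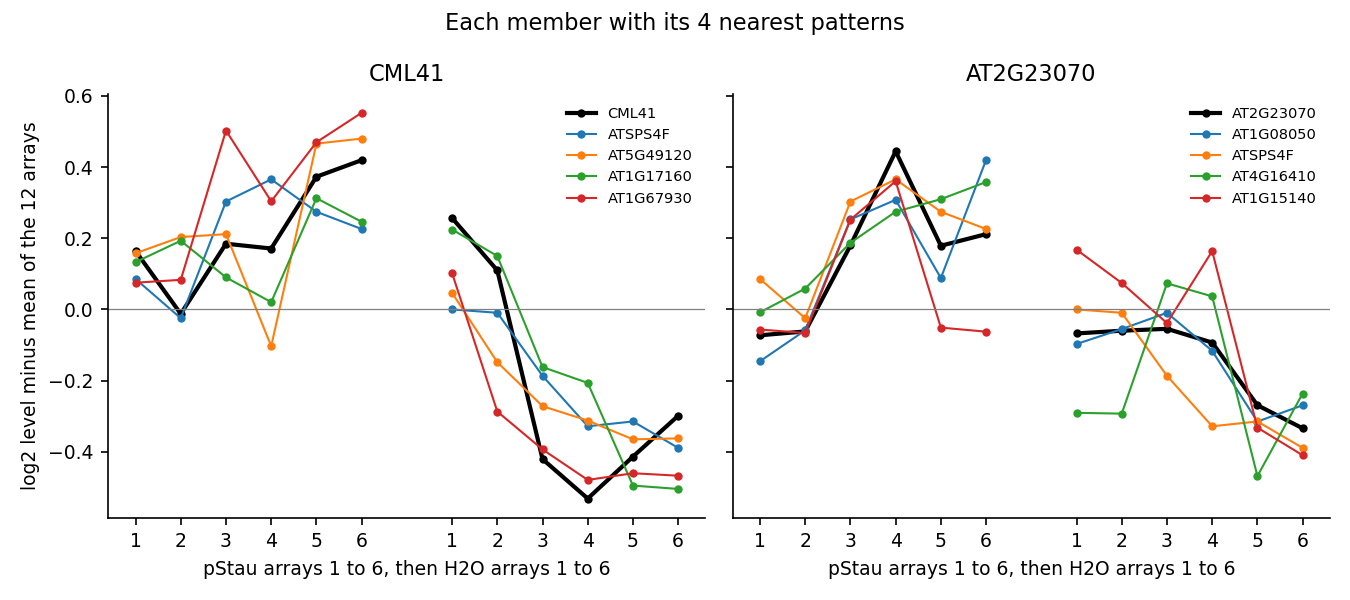
Centred log2 levels of CML41 (left) and AT2G23070 (right), in black, with the 4 genes of the smallest root mean square difference, on pStau arrays 1 to 6 and then H2O arrays 1 to 6. Lines join arrays of a group for reading only, since the labels give no meaning to the order of the numbers. ATSPS4F is in both panels, at 0.158 from CML41 and 0.109 from AT2G23070.

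The spread of both genes within a group was set beside that of the other probes. The SD of the log2 level over 6 pStau arrays was 0.16 for CML41 and 0.19 for AT2G23070, at percentiles 12.3 and 17.7 of all tested probes, whose median SD was 0.38. Over the 6 H2O arrays the SD was 0.32 for CML41, at percentile 58.0, and 0.12 for AT2G23070, at percentile 11.7, with a median of 0.28. CML41 thus varied less over pStau arrays than over H2O arrays and AT2G23070 the other way round, differences of spread that were not tested. Neither was listed at 0 on any array, so no value of theirs rests on the floor set for low values. The tested probes include some with zeros set to that floor, and no comparison with probes of like level was made.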

How the data were processed

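The values are array intensities as deposited by the authors, in 1 table of the whole series; their background correction, scaling and centring, the scanner and the dyes are not given in the sources used here, and linearity was taken from the values. Genes were named through the platform annotation, updated by the RefSeq gene table (TAIR10.1), where 690 of 692 probes with 1 gene matched. That table holds no product text, so the keyword lists were matched on symbols and synonyms.

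The array medians differed up to 2.87-fold, over the stated limit of 10%, so positive values were quantile normalized. Zeros and values below the 1st percentile (0.0167) were set to it before log2, and 183 probes at 0 on all arrays were left out. The group comparison used limma 3.58.1 under R 4.3.3 (lmFit, then eBayes) with no block, two-sided p-values, Benjamini-Hochberg adjustment across the 3256 tested probes and a threshold of 0.05. Single values were compared with exact permutation over the 924 splits of the arrays. The number of arrays limits the precision.

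The members, lists and tests were chosen with earlier results of these data known. The genes named are both members, the tested genes of the lists and the 4 nearest patterns of each member. Same-numbered arrays deviated together from their group means (r of 0.31 to 0.54 across all tested probes, where 0.1 was the limit, in 6 of 6 numbers). The number was therefore used as a pairing in an alternative fit and in the sign-flip tests, but not in the group comparison above. In the alternative fit neither gene was called (limma adjusted p = 0.0770 for CML41 and 0.0686 for AT2G23070). The labels do not state the source of this pairing. Plots used matplotlib 3.10.9 (Python 3.11.15). Alternatives covered normalization, floor, filters, spread estimate, blocks, averaging and left-out arrays. Sequences and coordinates were not used here.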

Additional observations from a re-analysis of the deposited data

Results flagged for a closer look

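AT1G67930, named for its likeness to CML41, stood apart on H2O array 1 with a log2 level of -1.49. The nearest of the other H2O arrays was at -1.88, which makes the gap 0.669 of the whole range. This was 1 of 36 groups of 6 arrays looked at, and chance gives about 1 in 20.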

How the results depend on the processing

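CML41 kept its direction in every alternative, and its log2 change of 0.43 lost its call as deposited (0.186, adjusted p = 0.416), with arrays scaled to the same total (0.172, 0.395), with the replicate block (0.433, 0.0770), and with consecutive arrays as a random block (0.433, 0.1002) or averaged (0.433, 0.258). AT2G23070 (0.29) reversed as deposited (-0.399, 0.0434) and scaled to the same total (-0.413, 0.0157). It lost its call with cyclic loess (0.365, 0.0552), a pseudocount of 0.1 (0.238, 0.0534), the dimmest 25% of probes left out (0.293, 0.0572), probes with a zero left out (0.293, 0.0656), an intensity trend and robust fit (0.293, 0.0617), the replicate block (0.293, 0.0686) and consecutive arrays as a random block (0.293, 0.145) or averaged (0.293, 0.275).

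The exact permutation test over arrays, unadjusted, gave p = 0.0281 for CML41 and 0.0195 for AT2G23070. With arrays left out, the change was 0.268 to 0.742 for CML41 and 0.193 to 0.450 for AT2G23070. Leaving out a single array ended the call of CML41 for 8 of 12 arrays and that of AT2G23070 for 7 of 12. The rank difference of CML41 (7.82 points) was 5.45 to 12.5 with arrays left out. It lost its side of the threshold without number 3, 4, 5 or 6 (exact p = 0.0635 to 0.0794), without arrays 3 and 4 (0.171) or 5 and 6 (0.257), with the replicate block (7.82, exact p = 0.125) and with consecutive arrays averaged (7.82, 0.200). That of AT2G23070 (8.53) was 5.95 to 12.7, and lost it without arrays 5 and 6 (exact p = 0.171) and when consecutive arrays were averaged (8.53, 0.200), where 3 values against 3 cannot go below 0.1. Averaging and leaving out consecutive arrays for ranks were added after seeing the data.

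The AT2G23070 minus CML41 change passed only as deposited, scaled to the same total or centred on the median (-0.585, exact p = 0.00649), and was -0.293 to -0.0685 with arrays left out. It was not run for filters, the intensity trend or the random block. Of all probes, 1148 passed (536 higher, 612 lower), against 1808 scaled to the same total (180 and 1628), 524 with consecutive arrays as a random block, 3 with them averaged (876 at an unadjusted p under 0.05) and 483 to 1350 with arrays left out. The split was 183 and 1519 as deposited and 915 and 487 centred on the median. The cause of these differences was not tested.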
